A study of Caenorhabditis elegans with 10 samples.

Results

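Larvae carrying a deletion of *sftb-1*, the *C. elegans* gene for the core splicing factor SF3B1, were compared directly with larvae carrying 3 cancer-related amino acid changes in the same protein. The comparison took the 2 *sftb-1(cer6)* and the 2 *sftb-1(cer39)* libraries, 4 of the 10 RNA-seq libraries of the series, all from the second larval stage (L2) and all collected after 23 h of growth. The *cer39* larvae were homozygotes of strain CER276, whose SFTB-1 protein has the changes Q552P, R643C and K718E. The *cer6* larvae were homozygotes without a functional zygotic copy of the gene, taken from the balanced strain CER191, in which the wild-type copy is linked to a red fluorescent marker. Non-red *cer6* larvae were collected by flow sorting, so they had heterozygous mothers and could still hold maternal SFTB-1, and a small share of the sorted animals were recombinants or red siblings. The 2 WT libraries of the same table came from N2 larvae passed through the same sorting window, and they are shown beside the mutants without a part in the contrast. The *cer39* larvae were not sorted, and *cer39* animals grow to adults whereas *cer6* homozygotes arrest as larvae, so the effects of allele, sorting and stage reached cannot be told apart in any difference below. In whole larvae, fewer cells of one type and less RNA per cell cannot be told apart either.

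SF3B1 is the largest subunit of SF3B, which binds the branch site of an intron together with U2 snRNA. From there the spliceosome is rearranged by a series of RNA helicases, the tri-snRNP joins, and the intron is removed in a pair of catalytic steps. The missense changes lie in the HEAT repeats, the part of the protein that holds the branch site helix. Loss of the protein ends splicing once the maternal supply has been used, whereas missense forms can still assemble.

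The designed sequences show what distinguishes the 2 alleles. The guide below cut *sftb-1* for *cer6*, where repair left a deletion and an early stop codon, and it is printed as listed in the study's supplementary oligo list. All sequences here run 5′ to 3′, and *sftb-1* lies on chromosome III.
*cer6* guide: aactatcactgctctctgct
The *cer39* allele was built with 3 guides and 3 single-stranded repair templates. They are shown in full because their capitals, the bases changed from the wild-type sequence, hold the amino acid changes together with silent changes around them.
K718E guide: tgatattgttgaaagcggat
K718E template: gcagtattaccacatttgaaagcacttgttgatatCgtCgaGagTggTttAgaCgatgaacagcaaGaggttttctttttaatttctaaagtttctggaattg
R643C guide: atgcacgagcggttgtatta
R643C template: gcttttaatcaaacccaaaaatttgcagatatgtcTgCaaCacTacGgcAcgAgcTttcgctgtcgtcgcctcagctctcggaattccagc
Q552P guide: agcgatggtgacatgagaag
Q552P template: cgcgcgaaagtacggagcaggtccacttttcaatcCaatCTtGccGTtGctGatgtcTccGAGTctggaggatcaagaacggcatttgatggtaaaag
The templates hold 8 changed bases for K718E, 8 for R643C and 13 for Q552P. Aligned to its template, the 20-base K718E guide meets 5 changed bases, and the R643C and Q552P guides, as their reverse complements, meet 7 and 8.

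The sum of 5 developmental timing genes (*lin-14*, *lin-28*, *lin-46*, *hbl-1* and *lin-29*) was 4884 and 5360 in *cer39*, 6557 and 6704 in *cer6* and 5269 and 6494 in WT. Both *cer6* libraries lay above both *cer39* libraries. Not all of these genes are early ones, so their sum does not fix the stage of either group. The *cer39* libraries held 76420128 and 62036646 reads and the *cer6* libraries 59721036 and 45313448. The deposited table gave normalized read counts for 23421 transcripts, which were summed to 15355 genes. A gene was tested if its mean over the 4 libraries was at least 10, and it was said to differ if its adjusted p from limma was below 0.05. Of 15089 genes tested, 2983 differed, which was 19.8%. In *cer6*, 1399 genes were higher (9.27% of those tested) and 1584 lower (10.5%), and 657 of the former and 697 of the latter differed by at least 2-fold. The median log2 difference over all genes was 0.02, and other scalings moved it by no more than 0.01. How many genes passed depended strongly on each mutant library. With 1 library left out, that group had a single library, which was assumed to vary like the others. Without *cer39* replicate 1 no gene passed with limma (3304 had an unadjusted p below 0.05), and without *cer39* replicate 2, *cer6* replicate 1 and *cer6* replicate 2 the counts were 161, 516 and 227. For each gene list, the range of these 4 counts is given below in the form "0 to 3 without 1 mutant library". With all libraries, edgeR on the recovered reads called 3019 genes and DESeq2 called 4086.

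**Figure D1:**
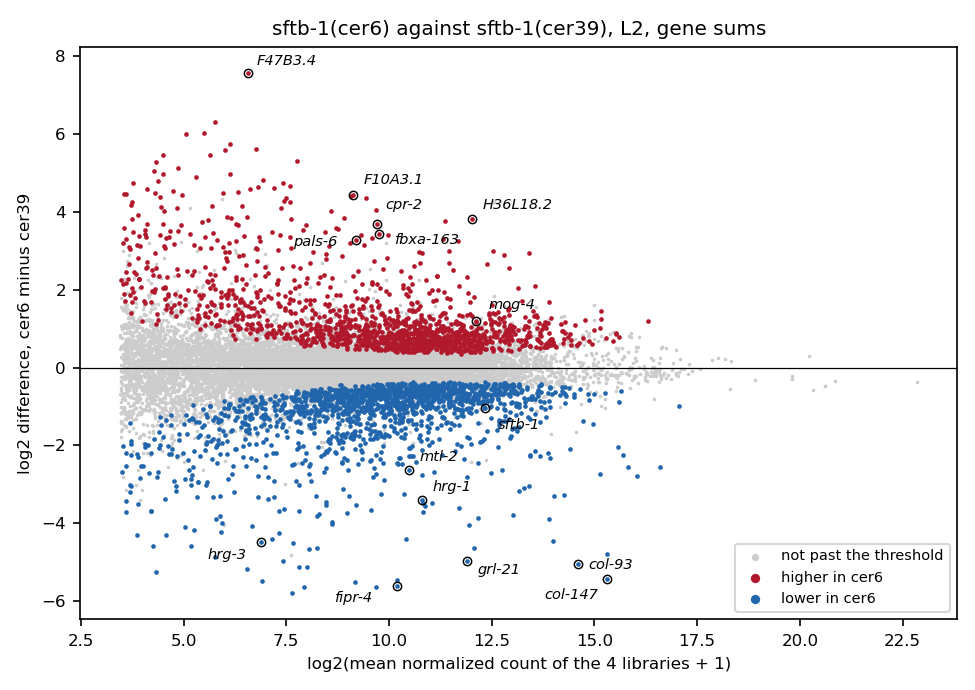
Each point is a gene, placed by its mean level over the *cer6* and *cer39* libraries (log2 of the normalized count plus 1, horizontal) and by its log2 difference between *cer6* and *cer39* (vertical). Red points are the 1399 genes higher in *cer6*, blue points the 1584 lower, grey points did not pass, and the genes named by the labels are described in the text.

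The targeted gene followed its labels. *sftb-1* (WBGene00011605, WBcel235 chromosome III, 4263786 to 4269270, minus strand) had normalized counts of 7333 and 6706 in *cer39*, 3229 and 3580 in *cer6* and 6152 and 7222 in WT. Both *cer6* libraries lay below the other 4, and *cer39* lay at the WT level. The level in *cer6* was 0.485 times that in *cer39* (log2 difference −1.04 ± 0.13 (SE), adjusted p = 0.00880). Without 1 mutant library the difference was −1.12 to −0.97 and did not pass after adjustment in any of the 4 fits. Of 391 tested genes within 1000000 bases of *sftb-1*, 41 were higher and 40 lower, near the shares of all genes (9.27% and 10.5%).

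Of the 59 gene lists examined, the one with the largest share of higher genes held the late-acting splicing machinery. Among these factors, acting at or after tri-snRNP entry, 26 of 37 were higher in *cer6* (70.3% against 9.27% of all genes), 11 did not pass, and the median log2 difference was 0.69 against 0.02 over all genes. *mog-4*, the DHX16 helicase that drives the step before the first cut, had 2741 and 2662 in *cer39* and 6019 and 6337 in *cer6* (log2 difference 1.19 ± 0.12 (SE), adjusted p = 0.00783). *mog-5*, the DHX8 helicase that releases the spliced message, had 5615 and 5401 in *cer39* and 11530 and 10971 in *cer6* (1.03 ± 0.12, adjusted p = 0.00828). The helicase *ddx-23*, the tri-snRNP protein *prp-3* and *prp-8*, the scaffold of the active site, rose by 0.91, 0.88 and 0.89 on the log2 scale. Both *cer6* libraries lay above both *cer39* libraries in 35 of the 37 genes, where 34.4% of all genes were so placed, and below them in 1, the cyclophilin gene *cyn-12*, which did not pass (904 and 824 in *cer39* and 751 and 716 in *cer6*, −0.24). The count was 0 to 3 without 1 mutant library, with 35 members above 0 in each of these fits. WT lay below both mutants for 23 of the 26: *mog-4*, for example, had 1948 and 2350 in WT, so the order was WT, *cer39*, *cer6*.

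Several partners of SFTB-1 were higher in *cer6* as well, while *sftb-1* itself was lower. Of 17 SF3B, SF3A, U2AF and associated genes, 7 were higher in *cer6* (41.2% against 9.27% of all genes) and 2 lower (11.8% against 10.5%). The other 8 did not pass (median 0.49), and none of the 17 passed without 1 mutant library. *rnp-6*, the PUF60 ortholog, which helps U2AF to bind the end of the intron, had 4452 and 4444 in *cer39* and 8704 and 8419 in *cer6* (log2 difference 0.94 ± 0.11 (SE), adjusted p = 0.00872), and 2157 and 2532 in WT. *teg-4*, which encodes SF3B3, a subunit of the same complex, had 7688 and 7548 in *cer39* and 13649 and 13695 in *cer6* (0.84 ± 0.10, adjusted p = 0.00872). *smr-1*, an SMN-related factor, *sftb-2* (SF3B2), *prp-21* (SF3A1), *repo-1* (SF3A2) and *uaf-2* (the small U2AF subunit) were higher by 0.86, 0.50, 0.68, 0.68 and 0.52. Besides *sftb-1*, the gene that was lower was *moa-2*, with 527 and 517 in *cer39* and 339 and 325 in *cer6* (−0.65).

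Splicing regulators did not share this direction. Among SR proteins, hnRNPs and related regulators, 4 of 38 were higher and 6 lower (median 0.02, none higher and 0 to 1 lower without 1 mutant library). The shares were 10.5% higher and 15.8% lower, against 9.27% and 10.5% of all genes. In the Sm and LSm list below they were 7.14% and 14.3%. The lower regulators held SR proteins, which bind exonic enhancers. *rsp-5* had 1985 and 1811 in *cer39* and 1056 and 929.9 in *cer6* (log2 difference −0.94 ± 0.12 (SE), adjusted p = 0.00958), and *rsp-6*, *rsp-2*, *rsp-1* and *rsp-4* differed by −0.74, −0.59, −0.50 and −0.48, with *hrpk-1*, the hnRNP K ortholog, at −0.69. The higher ones were *rsp-7*, *rsr-2*, *swp-1*, a suppressor-of-white-apricot family protein, and *asd-1*, an RBFOX family protein (0.48, 0.55, 0.69 and 0.48). Of 14 Sm and LSm genes, which form the rings around snRNAs, 1 was higher and 2 lower, none of them without 1 mutant library. Genes of nonsense-mediated decay, which removes messages with early stop codons, and the exon junction were higher in 4 of 15 cases (26.7% against 9.27%). Among them were the kinase *smg-1* at 0.51 and *smg-3*, the UPF2 ortholog, at 0.41, and again none passed without 1 mutant library.

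Spliceosomal snRNA genes as a group differed little between the mutants although both mutants lay far from WT. In *cer6*, 5 of 49 were higher and 44 did not pass, and the 10.2% higher was near the 9.27% of all genes. The median was 0.00, with its sign changing under TMM scaling. All 5 calls were lost without 1 mutant library, and without *cer6* replicate 1 4 other genes were lower. The largest of the 5 was T08G5.11, with 13023 and 13054 in *cer39*, 28092 and 22339 in *cer6* and 2901 and 3277 in WT (log2 difference 0.94 ± 0.15 (SE), adjusted p = 0.0145). snRNA genes took 1.37% and 1.5% of the reads in *cer39*, 2.23% and 1.46% in *cer6* and 0.298% and 0.232% in WT, so the *cer6* replicates differed from each other by more than the mutant groups did. Near-identical snRNA copies share reads, which RSEM splits by estimate, and F40G12.13 and F40G12.14 had identical values. The pair *numr-1* and *numr-2*, which code for the same nuclear protein of the metal and splicing stress response, had 1592 and 1019 for *numr-1* in *cer39* and 14041 and 7189 in *cer6* (log2 difference 2.98 ± 0.51 (SE), adjusted p = 0.0180). *numr-2* had 1592 and 3127 in *cer39* and 14041 and 12330 in *cer6*, and since these copies had identical values in several libraries the levels of each are uncertain.

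**Figure D2:**
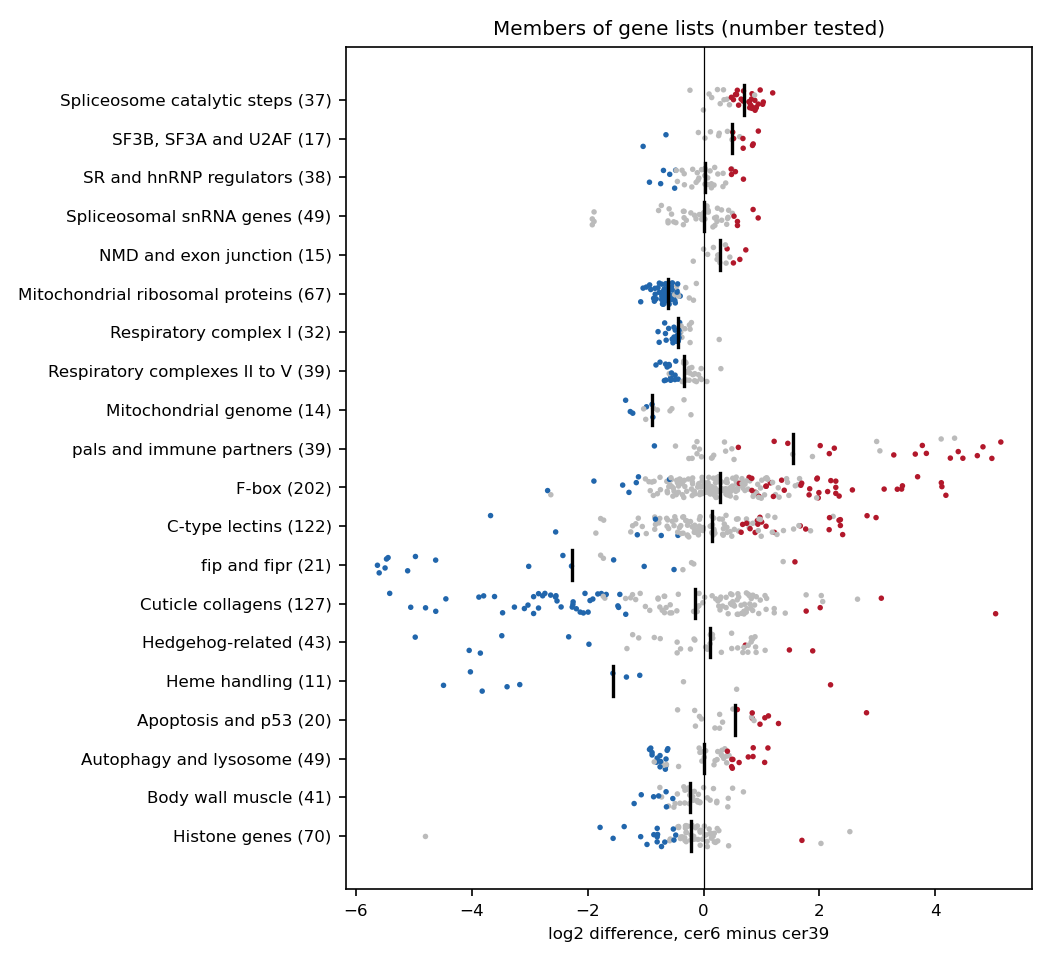
Each point is a tested gene of the list named at the left (number tested in brackets), placed by its log2 difference between *cer6* and *cer39*; red and blue points passed the test and black bars are list medians. Spliceosome genes have a median of 0.69 with *cyn-12* at −0.24, mitochondrial ribosomal genes all lie left of 0 around −0.61, and *fip* and *fipr* genes and one arm of the collagens reach below −5.

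Many nuclear genes for mitochondrial proteins were lower in *cer6*. The largest number of lower genes came from the mitochondrial ribosome, which translates the proteins coded in mitochondrial DNA. Of its genes, 56 of 67 were lower (83.6% against 10.5% of all genes), 11 did not pass, and the median was −0.61 (range −1.09 to −0.13). In all 67 both *cer6* libraries lay below both *cer39* libraries, against 33.4% of all genes. *mrpl-39* had 1743 and 1703 in *cer39*, 989 and 923 in *cer6* and 1735 and 1717 in WT (log2 difference −0.85 ± 0.10 (SE), adjusted p = 0.00845). *mrps-21* had 960.3 and 945 in *cer39* and 493 and 408 in *cer6* (−1.09 ± 0.14, adjusted p = 0.00998). Without 1 mutant library 0 to 5 of these genes passed, and 67 of 67 were below 0 in each of those fits. WT lay with or above *cer39* for most of those that passed (24 overlapping *cer39* and 22 above it), so for these genes *cer6* was the lowest group.

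The respiratory chain showed the same direction with smaller differences. In complex I, the entry point for electrons from NADH, 22 of 32 nuclear genes were lower (68.8% against 10.5% of all genes). The median was −0.44, and 0 to 1 were lower without 1 mutant library. *nduf-6* had 4041 and 4134 in *cer39* and 2436 and 2304 in *cer6* (log2 difference −0.79 ± 0.10 (SE), adjusted p = 0.00950). In complexes II to V 15 of 39 were lower (38.5%, median −0.34, 0 to 1 without 1 mutant library), among them the ATP synthase epsilon subunit *hpo-18* at −0.82. Among import, chaperone and protease genes of the mitochondrial stress list, 7 of 15 were lower (46.7%, 0 to 3 without 1 mutant library). They were the import subunits *tomm-20* and *timm-23* at −0.98 and −0.84 and the chaperones *hsp-6* and *hsp-60* at −0.72 and −0.68. The others were the cochaperone *dnj-10* at −0.80 and the proteases *spg-7* and *clpp-1* at −0.54 and −0.49. *hsp-6*, the mitochondrial HSP70, had 24275 and 21537 in *cer39*, 12712 and 15248 in *cer6* and 29229 and 34369 in WT, so the order was WT, *cer39*, *cer6* from high to low. Of 21 citric acid cycle genes 3 were lower (14.3%), none of them without 1 mutant library.

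Transcripts of the mitochondrial genome were also lower in *cer6*, but with WT on the other side. Of 12 protein-coding genes tested 6 were lower (median −0.94), and the 2 rRNA genes had differences of −0.34 and −0.58 and did not pass. *nduo-1*, a complex I subunit, had 61093 and 66484 in *cer39*, 39322 and 30050 in *cer6* and 35961 and 30623 in WT (log2 difference −0.89 ± 0.18 (SE), adjusted p = 0.0281). *nduo-6* had 1908 and 1733 in *cer39*, 930.3 and 549 in *cer6* and 1119 and 839.9 in WT (−1.35 ± 0.28, adjusted p = 0.0286), and *ctb-1*, cytochrome b, 160837 and 200033 in *cer39*, 107280 and 76419 in *cer6* and 108049 and 85636 in WT. In all 6 genes WT overlapped *cer6*, and *cer39* was the high group. Without 1 mutant library 0 to 3 of the 6 passed. Over all 14 genes of the mitochondrial genome the share lower was 42.9%, against 10.5% of all genes.

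The *pals*, F-box and C-type lectin families held more higher than lower genes. The *pals* genes, of which several are induced by intracellular infection and heat in the intracellular pathogen response, gave 33 tested members. Of these 15 were higher, 1 lower and 17 did not pass, with a median of 2.01. *pals-6* (chromosome I, 13136390 to 13138544) had 108 and 107 in *cer39*, 1042 and 1069 in *cer6* and 130.4 and 77.5 in WT (log2 difference 3.28 ± 0.26 (SE), adjusted p = 0.00598). *pals-3* had 5.39 and 9.83 in *cer39* and 265 and 207 in *cer6* (4.82 ± 1.15, adjusted p = 0.0398) and *pals-5*, used as a reporter of that response, 5.39 and 1.79 in *cer39* and 159.7 and 109 in *cer6* (4.98, adjusted p = 0.0409). *pals-11* was at 0 in all *cer39* and WT libraries and at 25.4 and 25.5 in *cer6*, at least 10.2-fold higher against a floor of 3 reads a library. The gene that was lower was *pals-15* (84.7 and 76.0 in *cer39* and 39.9 and 48.6 in *cer6*). Their ubiquitin ligase partners *cul-6*, a cullin, and *skr-4*, a Skp1 relative, were higher by 1.22 and 0.60. Over the whole list, 17 of 39 were higher (43.6% against 9.27% of all genes), and 0 to 2 were so without 1 mutant library. WT overlapped *cer39* or lay below it in most of the 17.

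F-box genes, the substrate adaptors of such ligases, were higher in 36 and lower in 7 of 202 cases (median 0.29, 0 to 5 higher without 1 mutant library). *fbxa-163* had 122 and 173 in *cer39*, 1627 and 1539 in *cer6* and 5.71 and 6.64 in WT (log2 difference 3.43 ± 0.23 (SE), adjusted p = 0.00485). *fbxa-114* had 266 and 348 in *cer39* and 1478 and 1225 in *cer6* (2.14), and both kept their call in 3 of the 4 fits without 1 library. For 27 of the F-box genes that passed, WT lay beyond *cer39*, so that the order was WT, *cer39*, *cer6*. The F-box shares were 17.8% higher and 3.47% lower, against 9.27% and 10.5% of all genes. Of 63 MATH and BATH domain genes, another adaptor family, 4 were higher and 3 lower, and at most 1 in each direction without 1 mutant library. The shares of this family, 6.35% higher and 4.76% lower, were below those of all genes. *math-28* had 4.62 and 12.5 in *cer39* and 216 and 215 in *cer6*, whereas *math-4* had 950.3 and 780.2 in *cer39* and 272 and 274 in *cer6* (−1.65 ± 0.14, adjusted p = 0.00598).

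C-type lectins, many of them secreted by the gut, were higher in 21 and lower in 6 of 122 cases (median 0.14, 0 to 6 higher without 1 mutant library). The lectin shares were 17.2% higher and 4.92% lower, against 9.27% and 10.5% of all genes. *clec-265* had 7421 and 7107 in *cer39*, 21223 and 25142 in *cer6* and 4085 and 4072 in WT (log2 difference 1.67 ± 0.12 (SE), adjusted p = 0.00515). F56A4.2 and *clec-209* carried identical values in every library (666 and 835 in *cer39* and 3259 and 4512 in *cer6*, 2.36), and reads of such copies cannot be assigned to either. *clec-47* went the other way with 1 very uneven pair, 154 and 686 in *cer39* and 42.7 and 13.9 in *cer6*. Antimicrobial peptide and lysozyme genes split evenly, 12 higher and 12 lower of 69 (17.4% each), with 0 to 3 and 0 to 4 without 1 mutant library. Higher were *dod-20* (118 and 102 in *cer39*, 695 and 941 in *cer6*), the infection response genes *irg-4*, *irg-5* and *irg-6* (1.34, 1.99 and 3.06), the antibacterial factor relative *abf-3* (3.57) and *cnc-2*, a caenacin (3.21). Lower were the neuropeptide-like genes *nlp-24* (33617 and 26896 in *cer39* and 3477 and 2643 in *cer6*, log2 difference −3.31 ± 0.30 (SE), adjusted p = 0.00651) and *nlp-26* (−3.54), with WT at the *cer39* level in both.

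Several of the 15 largest rises were in genes at or near 0 in *cer39* and WT, but not all: *dct-7* had 8.47 and 12.5 in *cer39* and 464 and 192 in *cer6*, and 484 and 172 in WT, which overlapped *cer6*. F47B3.4 (chromosome I, 3960968 to 3962249) had no read in any *cer39* or WT library and 195 and 181 in *cer6*, at least 75.3-fold higher against 3 reads a library (adjusted p = 0.00438). T17A3.10, also named *zig-13*, an immunoglobulin-domain gene, had 0.770 and 0 in *cer39* and 82.6 and 129.7 in *cer6* (log2 difference 6.30 ± 0.52 (SE), adjusted p = 0.00598). The sperm gene *spe-11* had 1.54 and 0.890 in *cer39* and 193 and 55.6 in *cer6* (5.58), a wide spread between the *cer6* libraries. Outside these 15, F10A3.1, also named *clc-32*, a claudin-like gene, had 44.7 and 50.9 in *cer39*, 899 and 1240 in *cer6* and 2.86 and 2.21 in WT (log2 difference 4.44 ± 0.26 (SE), adjusted p = 0.00471). *cpr-2*, a cathepsin B-like protease, had 90.87 and 147.46 in *cer39*, 1880 and 1206 in *cer6* and 25.7 and 24.4 in WT (3.69 ± 0.32, adjusted p = 0.00633). F47B3.4, F10A3.1 and *cpr-2* each passed in 3 of the 4 fits without 1 mutant library.

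Genes for secreted and cuticle proteins were frequent among the largest falls. The *fip* and *fipr* genes code for small secreted peptides related to fungus-induced ones. In *cer6* 14 of 21 were lower (66.7% against 10.5% of all genes) and 1 higher, with a median of −2.28. *fipr-4* had 2634 and 1920 in *cer39*, 70.8 and 28.9 in *cer6* and 2030 and 1302 in WT (log2 difference −5.60 ± 0.46 (SE), adjusted p = 0.00598). *fipr-9* had 269.5 and 199 in *cer39* and 7.26 and 2.32 in *cer6* (−5.47), and the exception was *fipr-24* with 342 and 200.2 in *cer39* and 1030 and 594 in *cer6* (1.58 ± 0.38, adjusted p = 0.0405). Without 1 mutant library 0 to 11 were lower. Members of the family are alike in sequence, so the split of reads among them is uncertain.

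Collagen genes, which build the cuticle and are expressed in waves within each larval stage, divided into a large lower arm and a few higher members. In all, 40 of 127 were lower (31.5% against 10.5% of all genes) and 4 higher (3.15% against 9.27%). The other 83 did not pass, and the median was −0.14. *col-147* (chromosome V, 9632029 to 9633338) had 92687 and 64804 in *cer39*, 2611 and 1255 in *cer6* and 43256 and 40730 in WT (log2 difference −5.42 ± 0.37 (SE), adjusted p = 0.00493). *col-93* had 57098 and 38560 in *cer39* and 1738 and 1143 in *cer6* (−5.06 ± 0.27, adjusted p = 0.00438), and *col-92*, *col-159* and *col-150* were lower, differing by −3.88, −3.80 and −2.64, all 5 also in 3 of the 4 fits without 1 library. The higher members were *col-38*, *col-43*, *col-84* and *col-143*. All were low, and *col-38* had 14.6 and 27.7 in *cer39* and 79.0 and 90.3 in *cer6*. The summed level of 6 hypodermal marker genes was 157033 and 104218 in *cer39*, 27209 and 34609 in *cer6* and 146086 and 149722 in WT. Most of that sum was *col-10*, itself a collagen, with 145997 and 89594 in *cer39* and 13881 and 20011 in *cer6*. The sum is therefore not a measure of the hypodermis separate from the collagens. Of the 6 markers 2 were lower and none is at 0, and their part in the collagen result was not tested. Over the list, 0 to 18 were lower without 1 mutant library.

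Other cuticle and molting genes had members in both directions, with shares nearer to those of all genes (9.27% higher and 10.5% lower). Hedgehog-related genes, nematode relatives of the Hedgehog signal expressed in epidermis, were lower in 6 and higher in 3 of 43 cases (0 to 4 lower without 1 mutant library). *grl-21* had 8477 and 6328 in *cer39* and 385 and 139 in *cer6*, and 7110 and 2473 in WT (log2 difference −4.98 ± 0.65 (SE), adjusted p = 0.00971). *grd-3*, *grd-10* and *grd-13* were lower, differing by −3.48, −4.05 and −3.85. Among astacin proteases, patched-related and other molting genes 5 were higher and 6 lower of 81, shares below those of all genes (up to 3 in each direction without 1 mutant library). The astacin *nas-10* had 29.3 and 47.4 in *cer39* and 0 in both *cer6* libraries, at least 12.4-fold lower. The patched-related gene *ptr-22* had 234 and 290.5 in *cer39* and 2063 and 1109 in *cer6* (2.53 ± 0.30, adjusted p = 0.00853). The glutamine- and asparagine-rich *abu* and *pqn* genes, several of them of the pharyngeal cuticle, were higher in 8 and lower in 11 of 65 cases, 12.3% and 16.9% (0 to 3 and 0 to 2 without 1 mutant library): *pqn-92* had 1606 and 1653 in *cer39* and 6507 and 5766 in *cer6* (1.91), *pqn-71* 103.96 and 106.35 in *cer39* and 5.45 and 17.4 in *cer6* (−3.29).

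Heme transport genes were lower in *cer6*, and for most of them *cer39* stood apart from WT. Worms do not make heme and take it up from food, and the *hrg* genes, which respond to heme, carry it between compartments and tissues. All 5 *hrg*-symbol genes tested were lower, with a median of −3.82. *hrg-1*, a heme transporter of endosomes and lysosomes (chromosome X, 4008057 to 4016221), had 3851 and 2671 in *cer39*, 287 and 323 in *cer6* and 394 and 333 in WT (log2 difference −3.39 ± 0.21 (SE), adjusted p = 0.00471). *hrg-3*, a secreted heme carrier, had 246 and 207 in *cer39*, 11.8 and 6.95 in *cer6* and 5.71 and 5.53 in WT (−4.49 ± 0.34, adjusted p = 0.00515). The intestinal importer *hrg-4* and the hypodermal *hrg-2* were lower, differing by −4.03 and −3.82. *asp-10*, also named *hrg-7*, an aspartic protease relative that signals heme status between tissues, had 19756 and 13563 in *cer39*, 1553 and 2117 in *cer6* and 2504 and 2317 in WT. In *hrg-1*, *hrg-3*, *hrg-4* and *asp-10* WT lay closer to *cer6* than to *cer39*. Over the list, 8 of 11 were lower (72.7% against 10.5% of all genes), 0 to 4 without 1 mutant library. *hrg-1*, *hrg-2*, *hrg-3* and *asp-10* passed in 3 of those 4 fits.

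Of 22 metal and splicing stress genes 8 were lower (36.4% against 10.5% of all genes), 3 higher and 11 did not pass, with at most 1 in each direction without 1 mutant library. The metallothionein *mtl-2* had 2309 and 2627 in *cer39*, 339 and 472 in *cer6* and 250.3 and 287 in WT (log2 difference −2.62 ± 0.20 (SE), adjusted p = 0.00515), and passed in 3 of 4 fits without 1 mutant library. *cdr-1*, a cadmium-responsive gene, had 319 and 342 in *cer39*, 146 and 154 in *cer6* and 108 and 101 in WT. The ferritin gene *ftn-1*, which stores iron, was the reverse, with 210.2 and 352 in *cer39*, 1341 and 1158 in *cer6* and 794 and 712 in WT (log2 difference 2.19 ± 0.26 (SE), adjusted p = 0.00848), and the divalent metal importer *smf-3* differed by −1.33. *phat-5*, a small toxin-related gene of the pharyngeal gland, was another gene high only in *cer39* among these libraries, with 2954 and 2194 against 66.2 and 214 in *cer6* and 189 and 131 in WT (−4.40 ± 0.56, adjusted p = 0.00912).

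**Figure D3:**
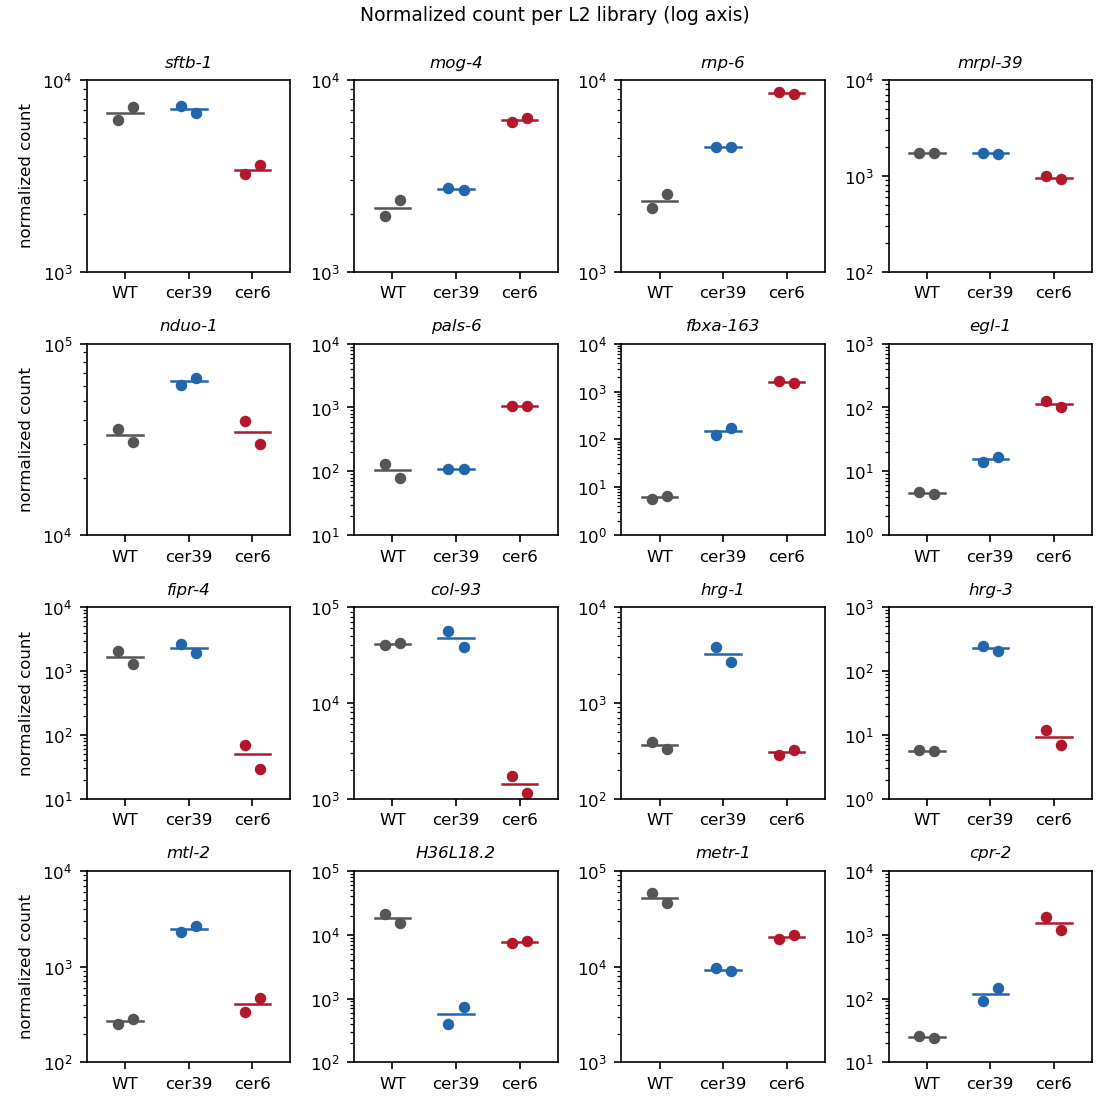
Normalized count of 16 genes in each L2 library, on a log axis that differs between panels; points are libraries and bars group means of 2. *sftb-1* is lower in *cer6* alone, *mog-4* and *rnp-6* step up from WT through *cer39* to *cer6*, and *hrg-1*, *hrg-3* and *mtl-2* are high in *cer39* alone.

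Of 17 genes of the propionate shunt and vitamin B12 list, 2 were higher (11.8%, near the 9.27% of all genes) and 15 did not pass. In the methionine and phosphatidylcholine list 3 were higher and 3 lower of 18 (16.7% each). In *metr-1*, *mthf-1* and *hphd-1* both mutants lay below WT, with *cer39* the lower one. *metr-1*, the B12-dependent methionine synthase, had 9584 and 8944 in *cer39*, 19577 and 21599 in *cer6* and 58817 and 45692 in WT (log2 difference 1.15 ± 0.16 (SE), adjusted p = 0.0111). *mthf-1*, which supplies its folate substrate, was at 8138 and 7104 in *cer39*, 12062 and 14891 in *cer6* and 27188 and 28949 in WT (0.82), and *hphd-1* of the propionate shunt at 2574 and 3958 in *cer39*, 8471 and 5775 in *cer6* and 37128 and 35003 in WT (1.13 ± 0.27, adjusted p = 0.0388). *acdh-1*, the first enzyme of that shunt, did not pass and its *cer39* libraries were far apart (86.2 and 2499 in *cer39*, 16855 and 4760 in *cer6* and 107412 and 63485 in WT, adjusted p = 0.115). In the removal of homocysteine, *cbs-1* and *cth-1* went opposite ways: *cbs-1*, which makes cystathionine, had 13615 and 10887 in *cer39* and 3421 and 4827 in *cer6* (−1.58), and *cth-1*, which splits it, 3687 and 2443 in *cer39* and 7451 and 8519 in *cer6* (1.41). None of these passed without 1 mutant library.

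Fatty acid genes differed by enzyme. Of 34 genes for synthesis and desaturation 9 were lower (26.5% against 10.5% of all genes) and 3 higher (8.82% against 9.27%). Without 1 mutant library 0 to 4 were lower. The elongases *elo-5* and *elo-6*, needed for branched-chain fatty acids, and *elo-1* and *elo-2* were lower, differing by −1.47, −1.64, −1.19 and −1.39, with *elo-5* at 9905 and 9286 in *cer39* and 3438 and 3488 in *cer6* (adjusted p = 0.00633). The desaturases *fat-2* and *fat-7* were higher, *fat-2* with 24179 and 23581 in *cer39* and 49009 and 47687 in *cer6* (log2 difference 1.02 ± 0.12 (SE), adjusted p = 0.00831) and *fat-7* with 87.8 and 93.8 in *cer39* and 377 and 248 in *cer6*, and WT between or above. In oxidation and lipid binding, *cpt-1*, which brings fatty acids to mitochondria, was higher by 1.02, while the hydroxyacyl-CoA dehydrogenase *hacd-1* and the fatty acid binding proteins *lbp-5* and *lbp-6* were lower (−2.06, −1.24 and −1.08). *decr-1.1*, a dienoyl-CoA reductase relative outside these lists, was among the largest falls, with 440.5 and 339.6 in *cer39*, 9.98 and 3.47 in *cer6* and 244 and 164 in WT (log2 difference −5.79 ± 0.47 (SE), adjusted p = 0.00598).

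Of the cell death and DNA damage genes, 8 of 20 were higher in *cer6* (40% against 9.27% of all genes) and 12 did not pass (median 0.54). *egl-1*, the BH3-only activator of programmed cell death, had 13.86 and 16.98 in *cer39*, 127 and 102 in *cer6* and 4.76 and 4.43 in WT (log2 difference 2.81 ± 0.29 (SE), adjusted p = 0.00783). *ced-4*, the Apaf-1 ortholog, had 840.1 and 833 in *cer39* and 1918 and 1723 in *cer6* (1.12 ± 0.11, adjusted p = 0.00756). *atl-1*, the ATR kinase of the replication checkpoint, and the engulfment transporter *ced-7* were higher by 1.29 and 1.06. The count was 0 to 2 without 1 mutant library.

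Replication and dosage compensation genes that passed were mostly higher as well, with smaller medians. Of 74 replication and cell cycle genes 12 were higher (16.2% against 9.27% of all genes) and 2 lower (median 0.29). *pcn-1*, the PCNA sliding clamp, had 1539 and 1688 in *cer39* and 2375 and 2476 in *cer6* (0.59), and the lower ones were the cyclin *cya-1* (−0.71) and the CDK inhibitor *cki-1* (−1.16). In the germ line list 7 of 65 were higher and none lower (median 0.23), and the 10.8% higher is near the share of all genes. Among them were *gld-1*, a translational repressor of the germ line with 493 and 381 in *cer39* and 864 and 1029 in *cer6*, *syp-1* of the synaptonemal complex (0.88) and the chromatin regulator *mes-4* (0.82). A sum of 6 germ line markers was 8166 and 6496 in *cer39*, 10204 and 12507 in *cer6* and 12495 and 19205 in WT. In the dosage compensation complex, which lowers X expression in hermaphrodites, 4 of 12 were higher (33.3%), *mix-1* with 4999 and 5221 in *cer39* and 10026 and 9870 in *cer6* (log2 difference 0.96 ± 0.10 (SE), adjusted p = 0.00783) and *dpy-28*, *sdc-3* and *capg-1* by 0.91, 0.76 and 0.59. Genes on X were higher in 5.21% and lower in 12.5% of 2207 cases with a median of −0.09, whereas on the autosomes 8.92% to 10.8% were higher and 9.09% to 11.2% lower. At most 1 gene of each of these lists passed without 1 mutant library.

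Autophagy genes and subunits of the vacuolar ATPase, the pump that acidifies lysosomes, moved apart. Of 20 *vha* genes 15 were lower and 1 higher (median −0.73). Of 29 other autophagy and lysosome genes 10 were higher and 19 did not pass (median 0.35). Over the whole list of 49 the shares were 22.4% higher and 30.6% lower, against 9.27% and 10.5% of all genes. *vha-10* had 12443 and 11774 in *cer39* and 6647 and 6032 in *cer6*, and 11441 and 11117 in WT (log2 difference −0.93 ± 0.11 (SE), adjusted p = 0.00831), *vha-8* was lower, differing by −0.91, and the one higher subunit was *vha-18* (201 and 142 in *cer39*, 383 and 349.7 in *cer6*). *sqst-1*, the p62 cargo receptor, had 6553 and 6842 in *cer39* and 12823 and 15068 in *cer6*, and 7556 and 7544 in WT (1.05 ± 0.12, adjusted p = 0.00826). *epg-4* and *atg-18*, which act in the formation of autophagosomes, were higher by 0.85 and 0.77. Over the list up to 2 genes were higher and up to 1 lower without 1 mutant library.

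Most muscle genes did not pass, and those that did were lower. Of 41 body wall muscle genes 7 were lower (17.1% against 10.5% of all genes) and 34 did not pass (median −0.24, 0 to 2 without 1 mutant library). *unc-97*, the PINCH adaptor at the integrin attachment, had 4474 and 4321 in *cer39*, 2019 and 2152 in *cer6* and 2711 and 2996 in WT (log2 difference −1.08 ± 0.10 (SE), adjusted p = 0.00735). Its partners *pat-4* (integrin-linked kinase), *pat-6* (parvin) and *unc-112* (kindlin) were lower, differing by −0.86, −0.78 and −0.64. A sum of 5 body wall muscle markers overlapped between the groups (205322 and 139336 in *cer39*, 146716 and 256081 in *cer6*). In the pharynx 4 of 11 genes were lower (36.4%) and 7 did not pass. The lower ones held the troponin subunits *tnt-4*, *tni-4* and *tnc-2* (−1.28, −1.05 and −0.99), and none passed without 1 mutant library. The sum of 5 pharyngeal markers was 33340 and 23079 in *cer39*, 15060 and 19879 in *cer6* and 22497 and 55550 in WT, and its part in the pharyngeal result was not tested.

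Of 60 synaptic and neuronal genes 5 were higher and 5 lower, each 8.33% and below the shares of all genes, and the other 50 did not pass. The genes for making and loading GABA were lower: *unc-25* (glutamate decarboxylase), *unc-47* (the vesicular transporter) and *unc-46* (which places it on vesicles). *unc-25* had 4632 and 3687 in *cer39* and 2484 and 2317 in *cer6* (log2 difference −0.78 ± 0.14 (SE), adjusted p = 0.0187), and the others differed by −0.93 and −1.09. WT lay between the mutants in each of them, near *cer6* in *unc-47*. *unc-46*, for example, had 203 and 205 in *cer39*, 103 and 88.0 in *cer6* and 157 and 115 in WT. The acetylcholine receptor subunit *unc-63* and the release clamp *cpx-1* were lower as well (−0.63 and −0.55). Higher were *che-3*, a dynein heavy chain of sensory cilia (0.58), the peptide-processing enzymes *egl-3* and *egl-21* by 0.63 and 0.51, the vesicle protein *ida-1* by 0.57 and the release factor *unc-31* by 0.39. *egl-3*, for example, had 12079 and 10902 in *cer39*, 16567 and 19048 in *cer6* and 10280 and 11256 in WT. Of 95 neuropeptide genes 5 were higher and 2 lower, shares below those of all genes. None passed without 1 mutant library.

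Developmental timing genes gave 1 large difference. H36L18.2, also named *lep-5*, is a non-coding RNA that helps to end the juvenile program by lowering LIN-28. It had 403 and 745 in *cer39*, 7444 and 8001 in *cer6* and 20998 and 15179 in WT (log2 difference 3.81 ± 0.32 (SE), adjusted p = 0.00598), and passed in 2 of the 4 fits without 1 mutant library. *lep-2*, which acts with it, and *lin-14*, an early larval timing gene, were higher by 0.76 and 0.69, with *lin-14* at 1475 and 1604 in *cer39* and 2435 and 2544 in *cer6*. The other 18 of 21 heterochronic genes did not pass, and the share higher was 14.3% against 9.27% of all genes. Histone genes, whose messages follow DNA replication, were lower in 15 and higher in 1 of 70 cases (0 to 4 lower without 1 mutant library). The shares were 21.4% lower and 1.43% higher, against 10.5% and 9.27% of all genes. *his-40* had 779 and 874 in *cer39* and 244 and 233 in *cer6* (−1.79). Many histone copies share reads. The linker histone relative *hil-1* was the higher one, with 313 and 321 in *cer39* and 1293 and 821 in *cer6*.

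Of the detoxification families, the transferases held more lower than higher genes and cytochrome P450 genes did not stand out. Of 47 glutathione S-transferase genes 13 were lower (27.7% against 10.5% of all genes) and 3 higher, and of 62 UDP-glucuronosyltransferase genes 17 were lower (27.4%) and 3 higher. Of 72 cytochrome P450 genes 4 were higher and 6 lower (median 0.03), shares below those of all genes. *gsto-1* had 1643 and 1065 in *cer39*, 241 and 318 in *cer6* and 419.8 and 377 in WT (log2 difference −2.25 ± 0.25 (SE), adjusted p = 0.00826), and *gst-15* was the reverse with 344 and 327 in *cer39* and 825 and 958 in *cer6*. *ugt-39* had 784 and 887 in *cer39* and 3470 and 2882 in *cer6* (1.92 ± 0.22, adjusted p = 0.00831). Among them, *cyp-13A2* was lower (6899 and 5394 in *cer39*, 1749 and 1702 in *cer6*) and *cyp-13A5* and *cyp-13A8* were higher (1.73 and 3.01). The glutathione peroxidase *gpx-3* was lower with 333 and 363 in *cer39* and 63.5 and 59.1 in *cer6* (log2 difference −2.48 ± 0.15 (SE), adjusted p = 0.00471) as were *gpx-5* and *gpx-7* (−2.12 and −1.45), while the catalases *ctl-1*, *ctl-2* and *ctl-3*, which are similar copies in 1 cluster, and the secreted superoxide dismutase *sod-4* were higher (0.72, 0.62, 1.17 and 1.16). Of these genes, *cyp-13A2* and *gpx-3* passed in 3 of 4 fits without 1 mutant library, and over the families 0 to 1 transferases and 0 to 5 glucuronosyltransferases were lower in them.

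Among ribosome biogenesis genes, 3 that code for box C/D snoRNP proteins, which guide rRNA methylation, were lower in *cer6*. The methylase *fib-1* had 18106 and 15636 in *cer39* and 9317 and 9096 in *cer6* (log2 difference −0.87 ± 0.12 (SE), adjusted p = 0.0114), and K07C5.4 (*nol-56*) and *nol-5* (*nol-58*) were lower, differing by −1.01 and −0.85, with WT overlapping *cer39* in all 3. The RNA polymerase I subunit *rpoa-2* was lower as well (−0.69), whereas *nog-1*, a GTPase of large subunit assembly, had 20599 and 18935 in *cer39* and 54257 and 53749 in *cer6* (1.45 ± 0.14, adjusted p = 0.00705). In the list of ribosome biogenesis 5 of 30 were lower (16.7% against 10.5% of all genes) and 1 higher (3.33%). At most 1 in each direction passed without 1 mutant library. Of 101 snoRNA genes 4 were higher and none lower (median −0.15), and the 3.96% higher was below the 9.27% of all genes. Among the 4, T09B9.10 had 109 and 100.1 in *cer39*, 663 and 412 in *cer6* and 22.9 and 15.5 in WT. Cytosolic ribosomal proteins differed in 2 higher and 1 lower of 81 cases, below the shares of all genes.

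Isoforms were compared in 2 ways. Of 22747 transcripts 1757 differed (7.72%), 835 higher (3.67%) and 922 lower (4.05%), and 202 of them belonged to genes whose sum did not pass. Without 1 mutant library 0 to 1 transcripts passed. The share of a gene's reads held by each isoform was tested for 11815 isoforms of 4309 genes, and 4 differed (0.0339%), where 1352 had an unadjusted p below 0.05. In *chl-1*, M03C11.2.2 held 100% in both *cer39* libraries and 0% in both *cer6* libraries, and M03C11.2.1 the reverse. In WT, M03C11.2.2 held 46% and 56%, and M03C11.2.1 54% and 44%. The division of a gene's reads between its isoforms is an estimate by RSEM. C56A3.3a of the peptide receptor gene *frpr-5* held 0% in *cer39* and 45.4% and 36.5% in *cer6*, and C14F5.3d of the troponin T gene *tnt-3* 0% and 22.7% and 30.5%. In 7 genes transcripts passed in opposite directions. Any 1 mutant library left out reduced the 4 isoforms to 2.

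The place of WT beside the mutants varied among the genes that differed. For each gene that differed between *cer6* and *cer39*, both WT libraries could lie beyond *cer39*, so that the order was WT, *cer39*, *cer6*. Next came WT overlapping the *cer39* values while apart from *cer6* (called with *cer39*), and both WT libraries between the mutants. The last places were WT overlapping the *cer6* values while apart from *cer39* (with *cer6*) and both WT libraries beyond *cer6*. Of the 1399 genes higher in *cer6*, WT lay beyond *cer39* for 529 (37.8%), with *cer39* for 324 (23.2%), between for 375 (26.8%), with *cer6* for 120 (8.58%) and beyond *cer6* for 51 (3.65%). Of the 1584 lower genes the shares in the same order were 19.5%, 34.8%, 33.8%, 9.03% and 2.84%. These counts are a description with no test, since all 3 groups share the fit and WT shares its sorting with *cer6*. Spliceosome, F-box and C-type lectin genes were mostly of the first kind and mitochondrial ribosomal genes of the first and second, whereas mitochondrial genome transcripts lay with *cer6*, and *hrg-3* and *mtl-2* had WT beyond *cer6*.

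**Figure D4:**
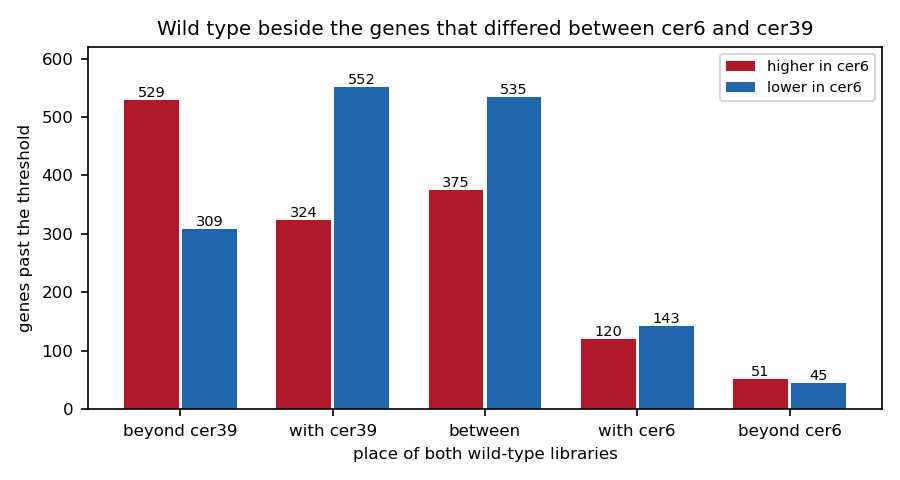
Number of genes that differed between *cer6* and *cer39* (vertical), by the place of the WT libraries (horizontal), for genes higher (red) and lower (blue) in *cer6*. The label "with" means that WT overlapped that mutant and lay apart from the other. WT lay at or beyond the *cer39* side for most genes, for example beyond *cer39* for 529 higher and 309 lower genes, and beyond *cer6* for 51 higher and 45 lower ones.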

How the data were processed

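Total RNA of the 6 L2 libraries was depleted of rRNA, made into stranded libraries with UMI adapters and read in pairs. The authors aligned reads with STAR to WBcel235 and estimated transcript counts with RSEM, and the deposited signal values are these counts divided by DESeq2 size factors. Tool versions and any collapsing of reads by UMI are not given in the sources used here. Every value was a whole read times a constant per library (100% within 0.1), so reads were recovered. One row with shifted cells was left out, and the deposited fold change and p-value columns of the authors' own comparisons were not used.

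Transcripts were summed per gene, and those averaging 10 or more over the 4 mutant libraries were tested on log2(value + 1) with limma 3.58.1 (trend) in R 4.3.3. One fit held all 6 libraries, WT adding only to the spread, with Benjamini-Hochberg adjustment over all genes and a threshold of 0.05. Fold changes on this scale understate low genes. Alternatives were edgeR 4.0.16 and DESeq2 1.42.0 on recovered reads, other scalings, pseudocounts, filters and samples. The pipeline was tested on simulated data. Comparison of library pairs (biological replicates per the paper's methods, with no statement on separate cultures) gave a median absolute log2 difference of 0.130 in *cer39* and 0.192 in *cer6*. Coordinates are of WBcel235. The comparison and the 59 gene lists were chosen with earlier results of these data known, so a list's direction is not independent evidence. Genes named were *sftb-1*, the 15 largest rises and the 15 largest falls (higher group averaging 100 or more, libraries not overlapping), and from every list as many as 4 genes of lowest adjusted p (higher group averaging 20 or more). A further 64 were named after their values were seen.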

Additional observations from a re-analysis of the deposited data

How the results depend on the processing

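Scaling, pseudocount, filter and tool kept the gene count within 1.5 times of 2983. The count depended on which library was left out: each in turn gave 0 to 516 genes for the mutant libraries and 3849 to 3862 for those of WT. Over all 6 the range was 0 to 3862 genes, 0 to 1629 transcripts (1757 with all) and 2 isoform shares in each case (4 with all). With 1 mutant library left out, 991 of 1196 calls on named genes were lost over the 4 fits and 205 kept, without a change of direction. Among transcripts, DESeq2 called 4458. Isoform shares gave 2 with a pseudocount of 5, 2 in a fit of only the 4 mutant libraries and 0 with a gene mean of at least 500 (limma; 1206 had an unadjusted p below 0.05), where fewer isoforms were tested. The cause of the other changes was not tested. Replicate numbers did not pair the samples: deviations of same-numbered libraries correlated at 0.05 between *cer39* and *cer6*, −0.22 between WT and *cer39* and 0.16 between WT and *cer6*. A replicate block gave 2228 genes, 173 transcripts and 2 isoform shares. With 2 libraries a group small differences seldom passed: 2537 of the 2983 genes differed by at least 1.5-fold.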

Other observations

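Metabolic and stress groups not described above gave the following, beside 9.27% higher and 10.5% lower over all genes. Several of their shares lay near or below these. In glycolysis, gluconeogenesis and trehalose 1 of 31 were higher and 4 lower: the trehalase *tre-5* had 841 and 756 in *cer39* and 305 and 308 in *cer6* (log2 difference −1.38 ± 0.13 (SE), adjusted p = 0.00661), the gluconeogenic *fbp-1* differed by −0.99 and lactate dehydrogenase *ldh-1* by −0.74, and *tre-2*, another trehalase, by 0.61. Fatty acid oxidation and lipase genes were higher in 3 (5.36%) and lower in 11 (19.6%) of 56. Of the methionine and phosphatidylcholine list, choline kinase *ckb-2* had 1746 and 1273 in *cer39*, 634 and 541 in *cer6* and 2695 and 2243 in WT (−1.35). Heat shock genes were higher in 3 (5.88%) and lower in 9 (17.6%) of 51, and the small heat shock genes *sip-1* and *hsp-12.1* went opposite ways (1.57 and −1.25). Oxidative and hypoxia genes were higher in 4 (11.4%) and lower in 5 (14.3%) of 35. In the proteasome list 2 of 36 were higher (5.56%), among them its transcriptional regulator *skn-1* (0.68), and in the ER stress list 2 of 21 were lower (9.52%).

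Tissue and receptor families gave the following, again beside 9.27% higher and 10.5% lower over all genes. Intestinal proteases were higher in 4 and lower in 2 of 24, with the cathepsin B relative *cpr-8* opposite to *cpr-2* (845 and 647 in *cer39* and 166 and 188 in *cer6*, log2 difference −2.06 ± 0.21 (SE), adjusted p = 0.00770). Of intestine markers 4 of 16 were lower, and 1 vitellogenin, *vit-1*, had 20.8 and 31.3 in *cer39* and 6.35 and 4.63 in *cer6*. Pharyngeal gland and mucin genes were higher in 2 and lower in 2 of 11, claudin-like genes in 2 and 4 of 31 (6.45% and 12.9%), basement membrane genes in 2 and 1 of 28 (7.14% and 3.57%). Of the latter, *him-4*, the hemicentin, had 7181 and 5862 in *cer39*, 11922 and 18486 in *cer6* and 15296 and 22371 in WT (log2 difference 1.19 ± 0.28 (SE), adjusted p = 0.0390). Insulin-like peptides were higher in 1 and lower in 2 of 25, *ins-33* with 1519 and 1099 in *cer39* and 349 and 459 in *cer6*. Of 226 nuclear hormone receptors 13 were higher and 17 lower, shares below those of all genes, with *nhr-201* at 262 and 257 in *cer39* and 771 and 679.8 in *cer6* (1.48). Of 36 sperm genes 2 were higher (5.56%), *spe-11* and *nspc-16*. Without 1 mutant library 0 to 3 higher and 0 to 7 lower genes were found in any of these lists, the 7 being heat shock genes.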
